A study of Glycine max with 12 samples.

Results

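A stretch of soybean chromosome 17 held 7 genes whose messenger RNA in developing seed differed at least 2-fold between transgenic event e15 and the null seeds, among neighbours that did not pass the test. For Glyma.17G176100 among the 7, the call was lost when any 1 of the e15 libraries was left out. The stretch was taken as all identifiers from Glyma.17G165000 to Glyma.17G180000. Of the 125 identifiers that the table lists there, 66 had at least 10 counts in at least 3 libraries and were kept as members, out of 32115 genes tested in all. The range was chosen by its changes in the e15 counts, with results for all groups known, so the e15 values below are a description and carry no test. Choosing genes that differ between e15 and the other groups favours levels that are alike in e19 and the nulls, so the calls of e19 against the nulls are read as a description too. Samples of genotype 93Y21, collected 35 days after flowering, gave 3 libraries of e15, 3 of e19 and 6 of nulls. Both events carry a construct with the GmUBQ promoter, and the series' title names a deletion variant of GmCGS2, a soybean cystathionine gamma-synthase. All titles begin with UBQ, those of the nulls included. They mark e15 (line code 15A) and e19 (19A) as HOM and the nulls (33A) as NULL. Each group is 1 line. The labels state neither how the null line relates to the events nor whether replicates came from separate plants, so the p-values measure only the spread between these libraries, which may be technical.

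Cystathionine gamma-synthase makes cystathionine on the way to methionine in plants. A transformation event is a plant line descended from its own integration of the introduced DNA, and null usually means a line without the transgene. Soybean identifiers number the genes in order along each chromosome, so that neighbouring numbers mark neighbouring genes. Soybean descends from an ancient polyploid and keeps many near-identical gene copies, and reads from such copies cannot always be assigned to 1 of them. The identifiers could not be paired with gene names or functions, since 0 of them occur in RefSeq's list of genes for Glycine_max_v4.0. The members are therefore described by identifier, and the transgene's target, seed markers and member sequences were not analysed here.

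Total counts per library ranged from 21988821 to 22849075 in e15, from 19207771 to 21900491 in e19 and from 21357512 to 23276877 in the nulls. On the main axis of variation (25.3% of the variance) e15 had scores of 9.34 to 15.7, and e19 replicate 3 stood at -11.2, away from the other e19 libraries at 23.8 and 20.2. The nulls formed 2 sets, with scores of -43.6 to -39.7 for replicates 1 to 3 and of 17.4 to 19.4 for replicates 4 to 6. On the second axis (13.7% of the variance) e15 stood apart, at -32.0 to -28.5. There e19 had scores of 9.74 to 18.9 and the nulls of 1.02 to 16.3. The 7 calls described next were also made against either set of nulls alone and without e19 replicate 3, except that of Glyma.17G176100 in e15 against e19 without that replicate. The members' summed level overlapped between groups, at 541 to 567 CPM (read counts scaled to a common library size) in e15, 535 to 558 CPM in e19 and 543 to 570 CPM in the nulls.

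In e15, 5 members rose and 2 fell against the nulls at a false discovery rate of 0.05 in edgeR's quasi-likelihood test. That is 10.6% of the 66, where 0.754% of all tested genes were called (0.258% higher and 0.495% lower), and nothing is read from the difference because this contrast chose the range. All 7 changed at least 2-fold, as did 0.243% of all tested genes. Comparing e15 with e19 directly, edgeR called the same 7 members in the same directions, again 10.6%, beside 0.299% of all tested genes (0.109% higher and 0.19% lower). In e19 against the nulls 0 of the 66 were called, where the background was 0.0747% (0.0467% higher and 0.028% lower). The 7 lay among places 39 to 64 of the 66 members in identifier order, from Glyma.17G171100 to Glyma.17G179000. Of the 26 members in that interval, 19 were not called.

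**Figure D1:**
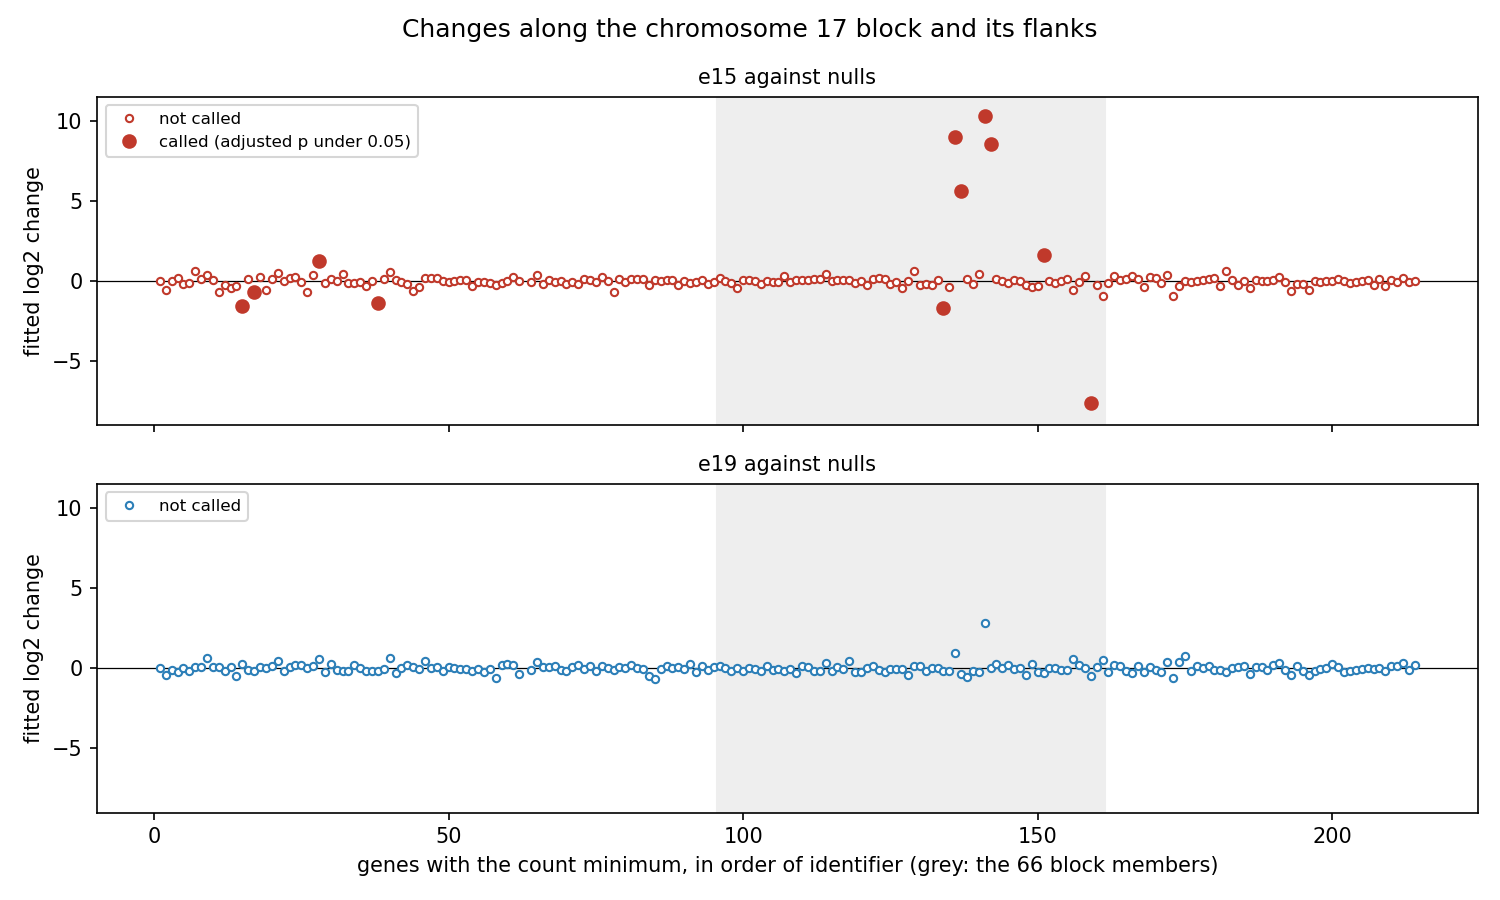
Fitted log2 change of e15 against nulls (upper panel) and e19 against nulls (lower panel) for each gene with the count minimum, in identifier order from Glyma.17G150000 to Glyma.17G195000, with the 66 members on grey and called genes as filled points. The 7 called members in e15 lie among uncalled members that are mostly near 0. In the range below the block 4 genes are also called in e15, with log2 changes between -1.55 and 1.23. No gene is called in e19. Where a group had almost no counts, the plotted value is set by the fit's prior count and gives no fold, and the e19 point at 2.80 rests on 2 counts.

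Glyma.17G171400 was detected in e15 and nearly absent elsewhere. It had 231, 180 and 243 counts in the e15 libraries, 0, 1.07 and 1.14 counts in the e19 libraries, and 0 counts in nulls 1 to 4 with 1.09 and 1.10 in nulls 5 and 6. No e15 library came near any library of the other groups. Its level was 9.91 ± 1.19 CPM in e15 (SD, n = 3), 0.0346 ± 0.0299 CPM in e19 (n = 3) and 0.0152 ± 0.0236 CPM in the nulls (n = 6). From rounded counts, e15 was 689 times the nulls with an exact 95% interval of 190 to 5705, and 293 times e19 with an interval of 80.9 to 2427. These intervals cover counting error only, and reads amplified by PCR are not independent molecules.

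The next identifier in the table, Glyma.17G171502, had the same pattern at a lower count. It had 96.9, 76 and 117 counts in e15, 3, 0 and 1 counts in e19, and 0 to 5 counts in the nulls. The groups did not overlap, but 2 null libraries, at 3.95 and 5 counts, lay above the limit of 3 used here for a gene that is off. Its level was 4.38 ± 0.742 CPM in e15, 0.0659 ± 0.0745 CPM in e19 and 0.0863 ± 0.0906 CPM in the nulls. The ratio of e15 to the nulls was 50.9 with an exact interval of 28.7 to 99.8, and that of e15 to e19 was 65.0 with an interval of 25.1 to 240. Counts that were not whole occurred in 7 libraries for Glyma.17G171400 and in 3 for Glyma.17G171502, so their reads may partly fit other genes.

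Further along, Glyma.17G173200 and Glyma.17G173301, which follow each other in the table, were detected in e15 with whole counts in all libraries. Glyma.17G173200 had 165, 137 and 164 counts in e15, 0, 0 and 2 counts in e19, and 0 counts in all 6 nulls. Its e15 level of 7.07 ± 0.553 CPM (n = 3) was at least 54.3-fold higher than the nulls, taken at a floor of 3 counts per library, which is 0.130 CPM there. Against e19 the ratio was 209 with an exact interval of 57.5 to 1731. Glyma.17G173301 had 51, 33 and 54 counts in e15, and 0 counts in every library of e19 and of the nulls. Its e15 level of 2.09 ± 0.452 CPM was at least 13.7-fold higher than e19, whose floor is 0.153 CPM, and at least 16.0-fold higher than the nulls. For all 4 of these genes e15 replicate 2 had the lowest level of the 3 e15 libraries, and each e15 library was above every library of the other groups.

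A gene was called on in 1 group and off in another where every library of the first had at least 10 counts and every library of the second at most 3. Glyma.17G171400, Glyma.17G173200 and Glyma.17G173301 were on in e15 and off in the nulls, which held for 0.0249% of all tested genes. With Glyma.17G171502 they made 4 members on in e15 and off in e19, beside 0.0311% of all tested genes. Only Glyma.17G179000 was off in e15 and on in the nulls, and it was also on in e19, each with a background of 0.0187%. For e19 against the nulls, 0 members were on or off in 1 group alone (background 0.00311% in each direction). No such gene lay among the genes with the count minimum in the equally wide ranges on either side. Nothing is read from that absence, since the block was chosen by its e15 changes and such genes are rare.

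Glyma.17G179000 was the 1 member not detected in e15 and on elsewhere. It had 0 counts in all 3 e15 libraries, 11, 14 and 21 counts in e19, and 33, 18, 32, 20, 26 and 25 counts in nulls 1 to 6. The e19 and null libraries overlapped, at 0.782 ± 0.270 CPM in e19 (n = 3) and 1.11 ± 0.247 CPM in the nulls (n = 6). The e15 level was at least 8.11-fold lower than the nulls and at least 5.71-fold lower than e19, taken at the e15 floor of 0.137 CPM. In e19 its log2 change against the nulls was -0.51 ± 0.30 (SE, adjusted p = 0.755 in edgeR's test). All its counts were whole.

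Glyma.17G171100, the first changed member in identifier order, fell in e15 but stayed well above the floor. It had 162, 105 and 113 counts in e15, 302, 362 and 339 counts in e19, and 327 to 528 counts in the nulls. The highest e15 level, 7.46 CPM, was below the lowest level in e19 (14.8 CPM) and in the nulls (15.1 CPM). Means were 5.78 ± 1.45 CPM in e15, 17.04 ± 2.15 CPM in e19 and 18.9 ± 2.24 CPM in the nulls. The log2 change in e15 was -1.71 ± 0.14 (SE) against the nulls and -1.56 against e19. The first null set averaged 20.7 ± 0.445 CPM and the second 17.2 ± 1.77 CPM, a smaller gap than that to e15. In e19 the log2 change against the nulls was -0.16 ± 0.12 (SE, adjusted p = 0.821 in edgeR's test), and its counts were whole in every library.

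Glyma.17G176100 had the smallest rise of the 5 members that rose. It had 20.8, 24.9 and 24 counts in e15, 3, 8 and 5.29 counts in e19, and 5 to 11.3 counts in the nulls. The e15 libraries lay above all others, at 1.06 ± 0.111 CPM in e15, 0.274 ± 0.138 CPM in e19 and 0.340 ± 0.122 CPM in the nulls. Its log2 change was 1.63 ± 0.32 (SE) against the nulls and 1.95 against e19. The call against the nulls rested on all 3 e15 libraries, with edgeR adjusted p = 0.0569, 0.0986 and 0.0992 without e15 replicate 1, 2 or 3. The call against e19 was lost under more settings. Among them were the fits without e15 replicate 1, 2 or 3 (edgeR adjusted p = 0.110, 0.188 and 0.173). They also included those without e19 replicate 1, 2 or 3 (edgeR adjusted p = 0.218, 0.0559 and 0.204) and without null 1 or 6 (edgeR adjusted p = 0.0611 and 0.0531). Its counts were not whole in 7 libraries.

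**Figure D2:**
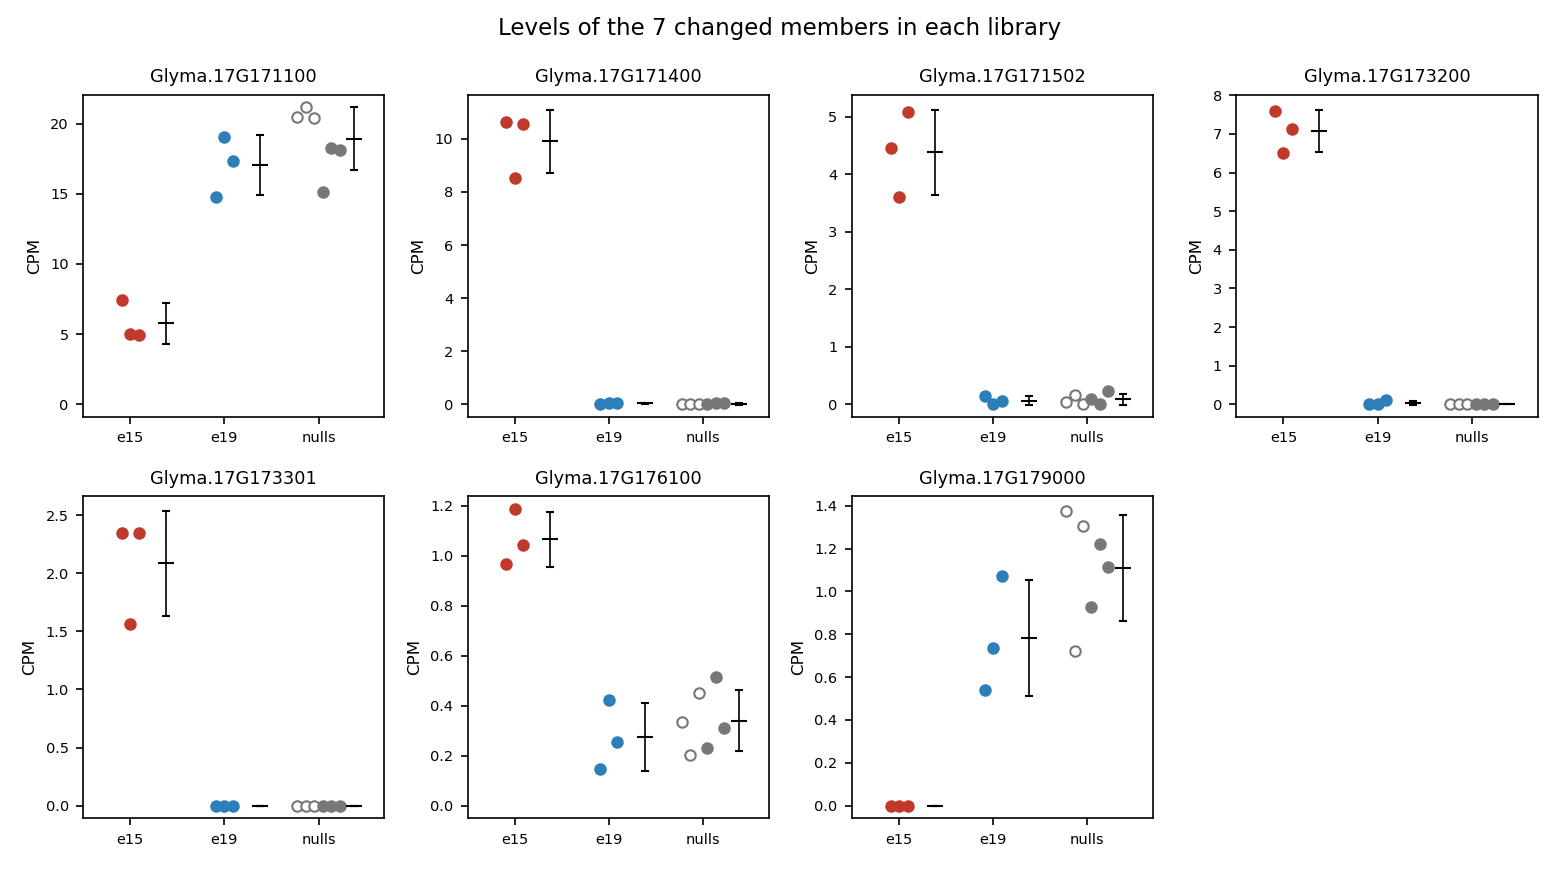
Levels in CPM of the 7 changed members in each library of e15, e19 and the nulls, with the mean and SD as a bar beside each group; open grey points are nulls 1 to 3 and filled grey points nulls 4 to 6. The e15 points do not overlap the other groups in any panel. Glyma.17G171400, Glyma.17G171502, Glyma.17G173200 and Glyma.17G173301 are near 0 outside e15, and Glyma.17G179000 is at 0 within it.

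The called members came in pairs and single genes with uncalled members in between. Between Glyma.17G171100 and Glyma.17G171400 lay 1 other member, Glyma.17G171300, with 9, 9 and 11 counts in e15, 4, 17 and 9 in e19 and 7 to 21 in the nulls. Its groups overlapped, and its log2 change in e15 was -0.40 ± 0.40 (SE). Between the pairs lay Glyma.17G172400, Glyma.17G172500 and Glyma.17G172900, with e15 log2 changes of 0.14, -0.17 and 0.43, none of them called. A run of 8 uncalled members followed up to Glyma.17G176100 and a run of 7 up to Glyma.17G179000. Over the 19 uncalled members of the interval the log2 change in e15 ran from -0.57 to 0.43, with a median size of 0.13. Among them, Glyma.17G175000 had 2645 median counts in e15 and a log2 change of 0.07, Glyma.17G176300 had 1278 and 0.00, and Glyma.17G175500 had 284 and 0.00.

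Over all 66 members the median log2 change in e15 was -0.00078, against -0.0044 over all tested genes, and the median size of the change was 0.13, against 0.10 over all tested genes. The 59 uncalled members ran from -0.95 to 0.64, and 56 of them lay within 0.5 of 0. At an unadjusted p under 0.05, 16 members, or 24.2%, passed in e15 against the nulls, beside 9.11% of all tested genes. Against e19 16 members passed as well, beside 6.65% of all tested genes. The CPM of e15 and null libraries did not overlap for 13 members, or 19.7%, beside 5.16% of all tested genes. That of e15 and e19 libraries did not overlap for 18 members, or 27.3%, beside 12.1% of all tested genes. As e15 chose the range, these shares are given as a description.

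In e19 against the nulls no member was called, and 4 of the 66 could hardly have been. Glyma.17G171400, Glyma.17G171502, Glyma.17G173200 and Glyma.17G173301 reached 10 counts only in the e15 libraries and had 0 to 5 counts in each library of e19 and the nulls. The smallest adjusted p of the 66 members in e19 against the nulls was 0.667 in edgeR's test, and DESeq2 also called 0. At an unadjusted p under 0.05, edgeR passed 3 members (4.55%, beside 7.04% of all tested genes) and DESeq2 passed 1. The 3 were Glyma.17G168900, Glyma.17G173200 and Glyma.17G178001. Glyma.17G168900 had a log2 change of -0.26, with 3.499 ± 0.274 CPM in e19 and 4.20 ± 0.233 CPM in the nulls. Glyma.17G173200 rested on the 2 counts of e19 replicate 3. Glyma.17G178001 had a log2 change of 0.56, with 1.71 ± 0.154 CPM in e19 and 1.16 ± 0.225 CPM in the nulls. Levels of e19 and null libraries did not overlap for 2 members, or 3.03%, beside 3.17% of all tested genes. Nothing is read from these shares, since the 66 include those 4 members. Glyma.17G170200, Glyma.17G172900 and Glyma.17G176100 also met the count minimum only with the help of e15 libraries. Of the 66 log2 changes, 60 lay within 0.5 of 0. Against nulls 1 to 3 alone, Glyma.17G169400 was called lower in e19, with a log2 change of -0.59 (edgeR adjusted p = 0.00506). Under that setting 1986 genes were called in all. The gene's e19 mean, 6.52 ± 1.34 CPM, was below that of the first null set (9.80 ± 0.839 CPM). It was above that of the second null set (5.62 ± 1.47 CPM), so the direction depended on which set was used.

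Towards lower identifiers Glyma.17G171100 was the first called member. Its neighbour Glyma.17G170900 had 14.5 ± 0.716 CPM in e15, 14.2 ± 1.72 CPM in e19 and 13.9 ± 1.14 CPM in the nulls, with a log2 change of 0.06 ± 0.09 (SE) in e15. None of the 38 members before Glyma.17G171100 was called, and their log2 changes in e15 ran from -0.47 to 0.64, with a median size of 0.09. Among them, Glyma.17G169100 (-0.23) and Glyma.17G170600 (-0.26) had every e15 library below every other library. Glyma.17G169100 was called lower with library totals alone and with DESeq2's test. Glyma.17G170600 was called lower with the replicate number as a block and against nulls 1 to 3. Those settings called 2350 and 2348 genes in all, and the former also called Glyma.17G166100 lower. The nearest called gene below the range was Glyma.17G155600, with 95 genes in between that had the count minimum. In the range from Glyma.17G150000 to Glyma.17G164999, 95 genes had the count minimum and 94 were tested. Of these, 1 rose and 3 fell in e15, 0 changed in e19, and 2 were called in e15 against e19. That is 4.26% called in e15 and 2.13% in e15 against e19, beside 0.754% and 0.299% of all tested genes.

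Those 2 were Glyma.17G152600 and Glyma.17G155600, both lower in e15. Glyma.17G152600 had 41, 43 and 52 counts in e15, 160, 151 and 116 counts in e19, and 128 to 159 counts in the nulls. Its groups did not overlap between e15 and the rest, and its log2 change in e15 was -1.55 ± 0.14 (SE). Glyma.17G155600 had 56, 40 and 36 counts in e15, 81, 86 and 108 counts in e19, and 88 to 150 counts in the nulls. Its e15 log2 change was -1.37 ± 0.19 (SE), with a mean of 2.01 CPM. The nulls had means of 6.05 CPM over replicates 1 to 3 and of 4.35 CPM over replicates 4 to 6. The other called genes were Glyma.17G152800, with a log2 change of -0.70, and Glyma.17G154200, with 1.23. No gene of this flank was on in 1 group and off in another. Nothing is read from this beside the block, which was chosen by its e15 changes.

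Towards higher identifiers the last called member was Glyma.17G179000. Just before it, Glyma.17G178800 had a log2 change of 0.33 ± 0.15 (SE) in e15. The last 2 members, Glyma.17G179200 and Glyma.17G179700, were not called. In the range from Glyma.17G180001 to Glyma.17G195000, 0 of 53 tested genes were called in e15, in e19 or in e15 against e19. Of all tested genes 0.754%, 0.0747% and 0.299% were called in these comparisons. The smallest adjusted p there in e15 against the nulls was 0.212 in edgeR's test, and the log2 changes ran from -0.94 to 0.62. The next called gene on the chromosome was Glyma.17G197401, with a log2 change of 0.87 in e15. At the edges of the identifier range, log2 changes in e15 were -0.06 for Glyma.17G164900 and 0.20 for Glyma.17G165000, and -0.95 for Glyma.17G179700 and -0.13 for Glyma.17G180100.

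Chromosome 17 held 1609 tested genes, of which 23 were called in e15, 1 in e19 and 12 in e15 against e19. The 23, which include those of the block, are 1.43%, beside 0.754% of all tested genes. Apart from the block and the flank below it, no range of the same width held more than 2 genes called in e15, and of these 1 gene changed at least 2-fold. That gene, Glyma.17G138600, was higher in both events, by 1.04 (e15) and 1.13 (e19) on the log2 scale. The first called member and the last called one were the same when calls were taken at a false discovery rate of 0.01 or only with at least 2-fold changes. Under other settings the first called in e15 against nulls lay as low as place 8 and the last as high as place 65, as given at the end.

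**Figure D3:**
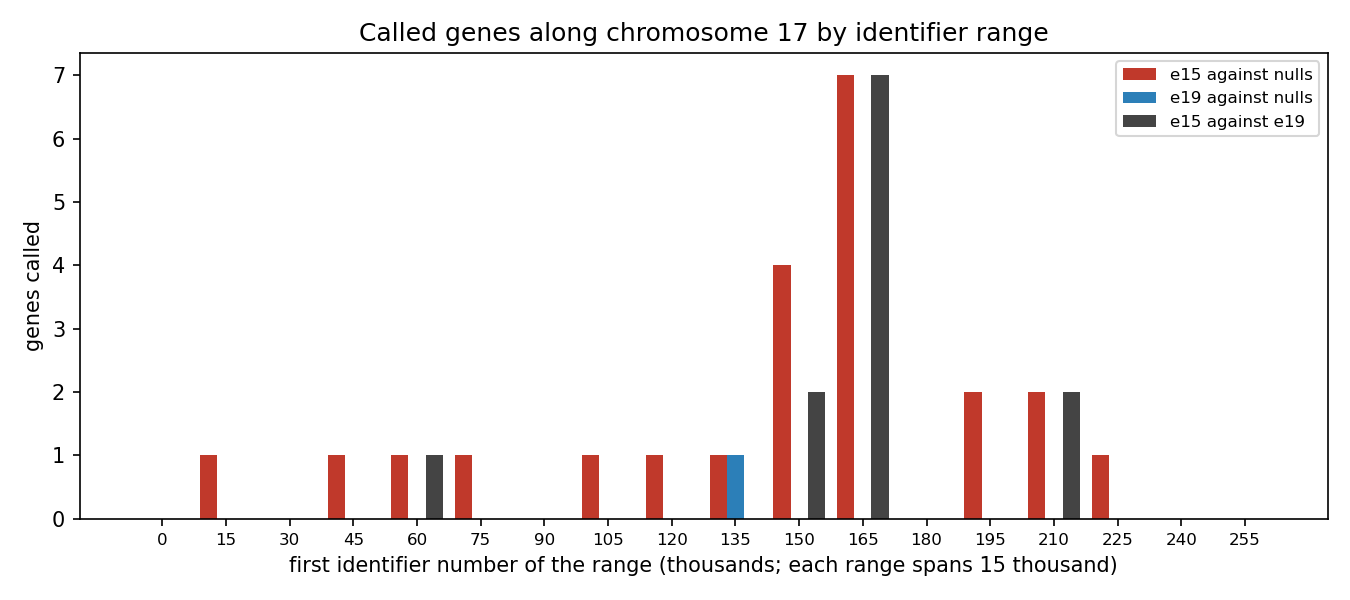
Number of genes called in e15 against nulls, in e19 against nulls and in e15 against e19 in consecutive identifier ranges of equal width along chromosome 17. The range that holds the block has 7 genes called in each of the comparisons with e15, the range before it 4 and 2, and the range after it 0.

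Near the upper end, some uncalled members, picked after their values were seen, had lower counts in e15 than in e19. Glyma.17G178800, also uncalled, went the other way, with 2.72, 3.08 and 2.74 CPM in e15. Each of these was above every library of e19 (2.30 to 2.35 CPM) and of the nulls (1.88 to 2.57 CPM). Glyma.17G179700 had 6.70, 12.7 and 8.83 counts in e15, 29.3, 19.1 and 25.9 counts in e19, and 15.3 to 24.7 counts in the nulls. Its e15 libraries were below all e19 libraries, at 0.443 ± 0.154 CPM in e15, 1.25 ± 0.220 CPM in e19 and 0.863 ± 0.196 CPM in the nulls. The log2 difference of e15 against e19 was -1.49 (edgeR adjusted p = 0.0723). Glyma.17G178001 had 23.2, 14.0 and 13.9 counts in e15, 36.97, 33.97 and 30.002 counts in e19, and 20.1 to 31.0 counts in the nulls. Its difference of e15 against e19 was -1.14 (edgeR adjusted p = 0.112). Both had counts that were not whole in all 12 libraries. Both differences were called with only nulls 4 to 6 in the fit (edgeR adjusted p = 0.0295 for Glyma.17G179700 and 0.0470 for Glyma.17G178001) and with the replicate number as a block (0.0457 and 0.0456). With only nulls 1 to 3, Glyma.17G179700 was called (edgeR adjusted p = 0.0338). Under these settings the last member called in e15 against e19 was Glyma.17G179700, the last of the 66. Glyma.17G175800, with whole counts, had 46, 55 and 55 counts in e15, 70, 71 and 72 in e19 and 58 to 89 in the nulls, and its difference of e15 against e19 was -0.61 (edgeR adjusted p = 0.299). Glyma.17G179200 had 6.86 ± 0.944 CPM in e15, 8.82 ± 0.894 CPM in e19 and 8.37 ± 1.21 CPM in the nulls. It was called lower in e15 against nulls 1 to 3 alone (edgeR adjusted p = 0.0236). That setting called 2348 genes in all, against 242 with all nulls.

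Of the 59 identifiers under the count minimum, 24 had 0 counts in all libraries and 35 had some. Closest to the minimum, Glyma.17G170200 was kept with 95 counts over the 12 libraries, while Glyma.17G179500 and Glyma.17G165300 were left out with 76 and 74. Glyma.17G179500 had 6, 2 and 22 counts in e15, 4 to 6 in e19 and 3 to 8 in the nulls, so its highest value came from e15 replicate 3 alone. The neighbours Glyma.17G168000 and Glyma.17G168100 lay below the first changed member, and were singled out after their values were seen. Glyma.17G168000 had 8, 3 and 6 counts in e15, 2, 1 and 2 in e19, and 0 to 2 in the nulls. Glyma.17G168100 had 6.54, 3.33 and 9.42 counts in e15, 1, 1.31 and 2.12 in e19, and 0 to 3.09 in the nulls. Each e15 library was above the other groups for both genes, at levels close to the floor. Without a filter on low counts, 0 of the 35 were called in any of the 3 comparisons in edgeR's test, and 3, 1 and 3 had an unadjusted p under 0.05 in e15 against nulls, e19 against nulls and e15 against e19.

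**Figure D4:**
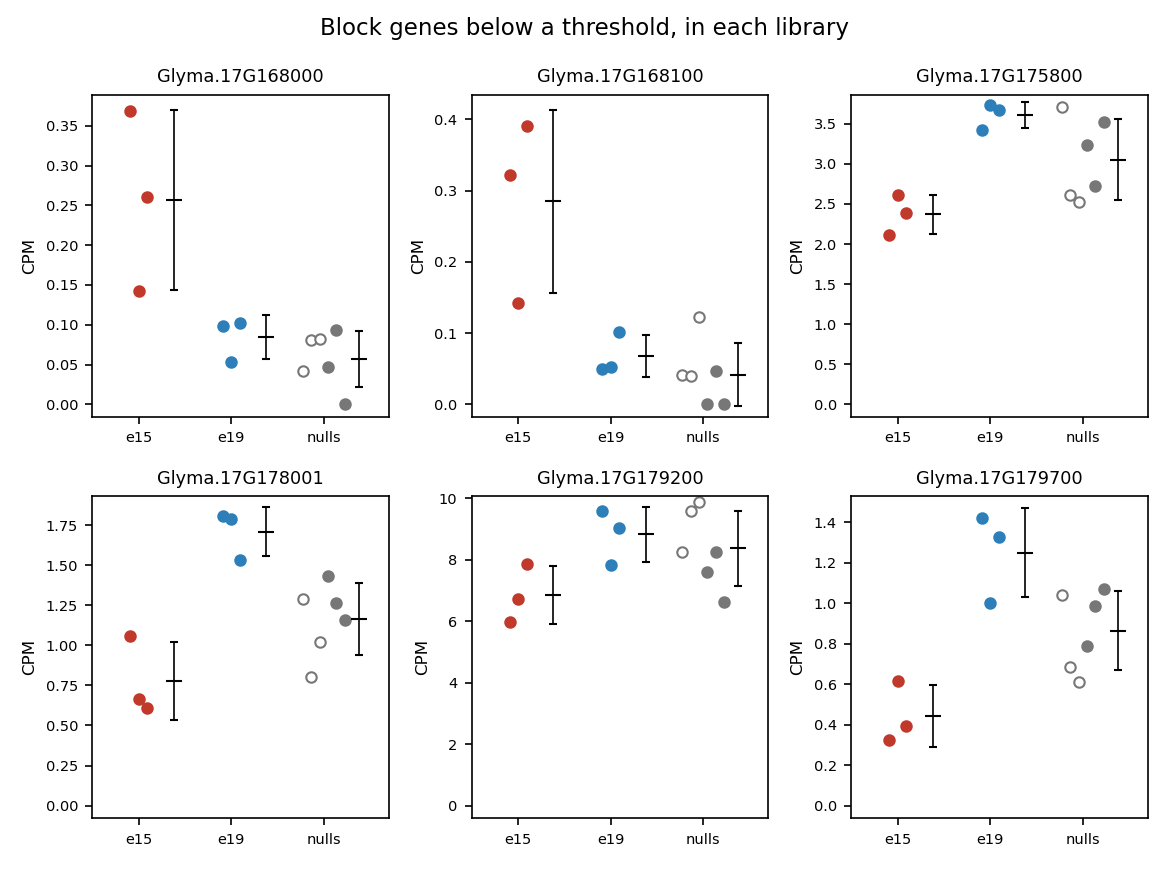
Levels in CPM of 2 genes under the count minimum (Glyma.17G168000 and Glyma.17G168100) and of 4 uncalled members at higher identifiers, in each library of e15, e19 and the nulls, with mean and SD beside each group; open grey points are nulls 1 to 3 and filled grey points nulls 4 to 6. Glyma.17G178001, Glyma.17G179700 and Glyma.17G175800 have all e15 points below all e19 points, with nulls between or overlapping. Levels of e15 and e19 libraries do not overlap, in either direction, for 12.1% of all tested genes.

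Counts of the members were whole in all libraries for 22 of the 66, and 4 of the 7 changed members were among these. At least 1 library gave a fractional count for 66.7% of the members and for 79.9% of all tested genes (tolerance 0.0005). Whether shared reads bear on the 3 changed members with such counts was not tested. Of the members, 4 had identifiers that do not end in 00, and 2 of these, Glyma.17G171502 and Glyma.17G173301, were among the 7. The others were Glyma.17G170002, with a log2 change of -0.02 in e15, and Glyma.17G178001. The labels do not say whether counting used strand, so reads of overlapping or antisense neighbours, as among the adjacent pairs, cannot be told apart.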

How the data were processed

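Single reads of 100 bp came from a stranded mRNA kit with oligo(dT) capture, per the labels' protocols. The authors deposited 1 table of estimated counts per gene, which are not all whole numbers. Names of the aligner and counter were not given in the sources used here. The table's name carries the annotation tag W82a4v1. No column was left out (0 columns).

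Counts were rounded, filtered with filterByExpr on the groups (32115 of 52872 identifiers kept, among them all 66 members), scaled with TMM and tested with edgeR 4.0.16 (R 4.3.3), in 1 robust quasi-likelihood fit over the 12 libraries, 1 coefficient for each group, without covariates. P-values were adjusted with Benjamini-Hochberg over all genes tested, and genes were called at 0.05. Standard errors were derived from the log2 change and the F statistic. Floors (3 counts) and exact intervals cover counting error only. Alternatives were other scalings, DESeq2 1.42.0, other filters, a replicate block, subsets of the nulls and leaving out each library. Members, ranges and rules were chosen with earlier results of these data known. Named were all called or on and off members, their neighbours and those nearest the count minimum; others were chosen after their values were seen.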

Additional observations from a re-analysis of the deposited data

Results flagged for a closer look

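For 7 members the effect in e15 differed from that in e19, by edgeR's direct comparison of both events, which shares the e15 libraries with the contrast that chose the range. On the log2 scale e15 minus e19 came to -1.56 for Glyma.17G171100, 7.97 for Glyma.17G171400, 5.90 for Glyma.17G171502, 7.48 for Glyma.17G173200, 8.52 for Glyma.17G173301, 1.95 for Glyma.17G176100 and -7.11 for Glyma.17G179000. Where an event had almost no counts, the value is set by the fit's prior count and gives no fold. No lone library stood apart among the nulls in the 14 sets of null values examined, although a gene at 0 in all nulls cannot show one.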

How the results depend on the processing

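The count of members called in e15 against nulls was 6 to 10 over all alternatives and that in e15 against e19 6 to 9, and Glyma.17G171100, Glyma.17G171400, Glyma.17G171502, Glyma.17G173200, Glyma.17G173301 and Glyma.17G179000 were called in both under each of the 20 alternatives. Leaving out each library gave 6 to 7 in e15 against nulls, 0 in e19 against nulls, 6 to 7 in e15 against e19 and 5 members on and off. The count in e19 was 2 with the replicate block and 1 against nulls 1 to 3 alone. The members on and off were 5, and 3 with off taken as at most 1 count. Glyma.17G179000, with lowest counts of 18 in the nulls and 11 in e19, was not on in either with on taken as at least 20 counts. In e15 against nulls the first changed member was at place 39, but at place 26 (Glyma.17G169100) with library totals alone and with DESeq2's test, at place 8 with the replicate block and at place 37 against nulls 1 to 3. The last was at place 64, but at 65 (Glyma.17G179200) with the replicate block and against nulls 1 to 3. In e15 against e19 the last called member was at place 66 (Glyma.17G179700) with the replicate block, with nulls 1 to 3 alone and with nulls 4 to 6 alone. The log2 change of Glyma.17G170900 in e15, 0.06 as reported, was -0.0387 with library totals alone, -0.0129 with the replicate block and -0.0143 against nulls 1 to 3. Library totals alone moved the median of all genes to -0.10 in e15 and -0.13 in e19. The block used replicate numbers of the titles, under which nulls 4 to 6 have numbers that no event has, so by construction it resembles the fit on nulls 1 to 3. It called 2350 genes in e15 against nulls, against 242 without it. Same-numbered libraries had correlations of -0.05 to 0.07 in 9 pairs, and differently numbered ones of -0.10 to 0.08 on the same measure. That measure does not describe how alike whole profiles were. Of the 9, 2 matched best with their own number, so the numbers were not taken to pair the samples. Where no cause follows from a setting's construction, the cause was not tested. Levels near the floor limit what could be seen for the 59 identifiers left out.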
